A study of Mus musculus with 16 samples.

Results

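The genes described here are named for proteins of the mitochondrial ribosome, the machine inside mitochondria that translates the few proteins encoded by mitochondrial DNA. They were chosen by name: every mouse gene whose symbol is Mrpl or Mrps followed by a number. Of 20972 gene symbols with a probe on the array, 78 met this rule, 49 named as large-subunit (Mrpl) and 29 as small-subunit (Mrps) proteins, and 100 probes stood for them. In 77 of the 78 (48 Mrpl and 29 Mrps) the probe was clearly brighter than its background on all arrays of 1 group or more, and only these 77 were tested. The remaining gene, Mrpl21, did not pass and is not described further. Of the 77, 74 were well above background on all 16 arrays. Mrpl35, Mrps15 and Mrps27 were so on 15.

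The series profiled donor T cells in mice with graft-versus-host disease, in which T cells of a transplant from a genetically different donor attack organs of the recipient, here the ovary. All samples came from female mice of C57BL/6 strain background after a haematopoietic stem cell transplantation, allogeneic (from a different strain) or syngeneic (genetically matched). The 6 groups were ovarian CD8+ T cells after allogeneic transplantation (4 arrays), splenic CD8+ T cells after allogeneic (3) and syngeneic (3) transplantation, ovarian CD4+ T cells after allogeneic transplantation (2), and splenic CD4+ T cells after allogeneic (2) and syngeneic (2) transplantation. Each sample held at most 10000 cells, sorted in a pair of rounds straight into Trizol, and its amplified RNA was hybridised to a one-colour array. There was no syngeneic ovarian group. The labels name neither the recipient strain nor the time after transplantation, and leave unstated whether each replicate was a different animal. The p-values therefore describe the spread among these samples alone, which may be technical.

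Mitochondrial ribosomal proteins are encoded in the nucleus, made in the cytosol and imported into mitochondria, where they assemble on ribosomal RNA transcribed from mitochondrial DNA. The products of this ribosome are core subunits of the respiratory chain and of ATP synthase, so its genes are studied together with those of the nuclear-encoded respiratory chain subunits. In T cells, mitochondrial mass and mitochondrial translation are known to increase after antigen activation, and mitochondrial translation is known to support the effector functions of cytotoxic T cells.

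Promoters were looked at because many of these genes are known to be driven by the factors NRF1, GABP (of the ETS family) and YY1. RefSeq (GRCm38.p6) promoter sequences, 250 bases before to 50 bases after each gene's start, were on hand for 69 of the 78 genes. A gene was counted where any of its promoter sequences matched, and the background was all 27025 genes with such a sequence, on the array or not. The NRF1 motif (GCGC, any base, TGCGC) was in 13 of the 69 (18.8%, against 5.19% of all 27025 genes), the ETS motif CCGGAAG in 26 (37.7%, against 9.93%) and the YY1 motif AAGATGGC in 12 (17.4%, against 3.19%). Both strands were searched. The last letters of the ETS motif are the first of the YY1 motif, so these matches can overlap, and 43 of the 69 genes held at least 1 of the 3 motifs. The E-box CACGTG was in 5 (7.25%, against 8.09%) and the TATA motif TATAAA in 5 (7.25%, against 15.7%). Median GC content was 58.7% in promoters of the 69 genes and 52.7% in all promoters, and its part in these shares was not tested. A match is a string of letters and not a shown binding site. The promoters of 3 genes that were called in more than 1 comparison are printed 5′ to 3′, with matched motifs in capitals, to show 1 example of each motif. They are Mrpl12 with an NRF1 match (chr11:120484387-120484686, plus strand), Mrpl18 with an ETS match (chr17:12916042-12916341, minus strand) and Mrpl32 with an NRF1 and a YY1 match (chr13:14612988-14613287, minus strand).
Mrpl12: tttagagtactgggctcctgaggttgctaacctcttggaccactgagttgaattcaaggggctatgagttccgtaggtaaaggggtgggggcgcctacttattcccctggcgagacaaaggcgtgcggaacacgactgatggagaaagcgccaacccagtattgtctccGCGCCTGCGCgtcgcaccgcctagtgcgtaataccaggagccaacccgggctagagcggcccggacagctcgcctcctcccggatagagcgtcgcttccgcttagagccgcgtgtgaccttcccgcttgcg
Mrpl18: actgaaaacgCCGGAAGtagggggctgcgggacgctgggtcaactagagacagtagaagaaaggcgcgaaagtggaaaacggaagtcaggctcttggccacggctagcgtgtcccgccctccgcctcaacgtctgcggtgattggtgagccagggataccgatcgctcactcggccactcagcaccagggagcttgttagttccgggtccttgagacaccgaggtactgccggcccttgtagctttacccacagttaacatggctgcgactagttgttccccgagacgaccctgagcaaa
Mrpl32: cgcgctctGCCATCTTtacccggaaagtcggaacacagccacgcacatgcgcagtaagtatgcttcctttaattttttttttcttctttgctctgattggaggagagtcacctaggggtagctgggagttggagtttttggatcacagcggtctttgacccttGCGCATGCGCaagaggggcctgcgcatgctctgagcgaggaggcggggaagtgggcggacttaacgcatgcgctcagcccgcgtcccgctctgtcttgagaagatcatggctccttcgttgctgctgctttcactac

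Values are log2 of the scanner's processed signal minus the array's 75th percentile, so 0 is a spot as bright as that percentile and 1 unit is a doubling. Probes differ in brightness for reasons of sequence, so levels are compared only between arrays for the same probe. The probes with the highest mean were those of Mrpl33, Mrpl52, Mrpl57, Mrps16 and Mrps21, and those with the lowest were Mrpl35, Mrps27, Mrpl37, Mrpl1 and Mrpl38. A difference is given ± its standard error from a limma fit over all 16 arrays and 22836 features, and a gene is said to rise, fall or be called only where its Benjamini-Hochberg adjusted p over all of those features was under 0.05. In bulk samples such as these, fewer cells of a type and less RNA per cell cannot be told apart. Precision is limited by how few arrays each group has.

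The arrays differed in brightness, with 75th percentiles from 67.6 to 450 units. Arrays of 1 group correlated with Pearson r of 0.936 to 0.996 over all genes, where genes are no replicates. The dimmest were the allogeneic CD4 arrays, at 133 and 68.2 units in ovary and 141 and 67.6 units in spleen. Among the sort markers, Cd8a followed the labels: it was well above background on all CD8 arrays and on 0 CD4 arrays. The T-cell marker list also held Cd4 and Cd8b1, and 10 of its 11 genes had a probe. All 10 were well above background on every CD8 array. In CD4 cells 9 were so on every splenic array and 8 on every ovarian array. This criterion therefore did not separate the subsets for every sort marker. In 5 cases a member's value on 1 array lay more than 2 log2 units from the same probe's value on any other array. These were Mrps18c in ovarian CD4 replicate 1, Mrpl4 and Mrps15 in allogeneic splenic CD4 replicate 1, and Mrpl53 and Mrpl54 in allogeneic splenic CD8 replicate 1. Results that rest on such a spot are given with and without it, and calls that appear only without it are named. The values of all members on all arrays are shown in the heat map, in which the CD8 arrays of allogeneic recipients form the reddest block.

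**Figure D1:**
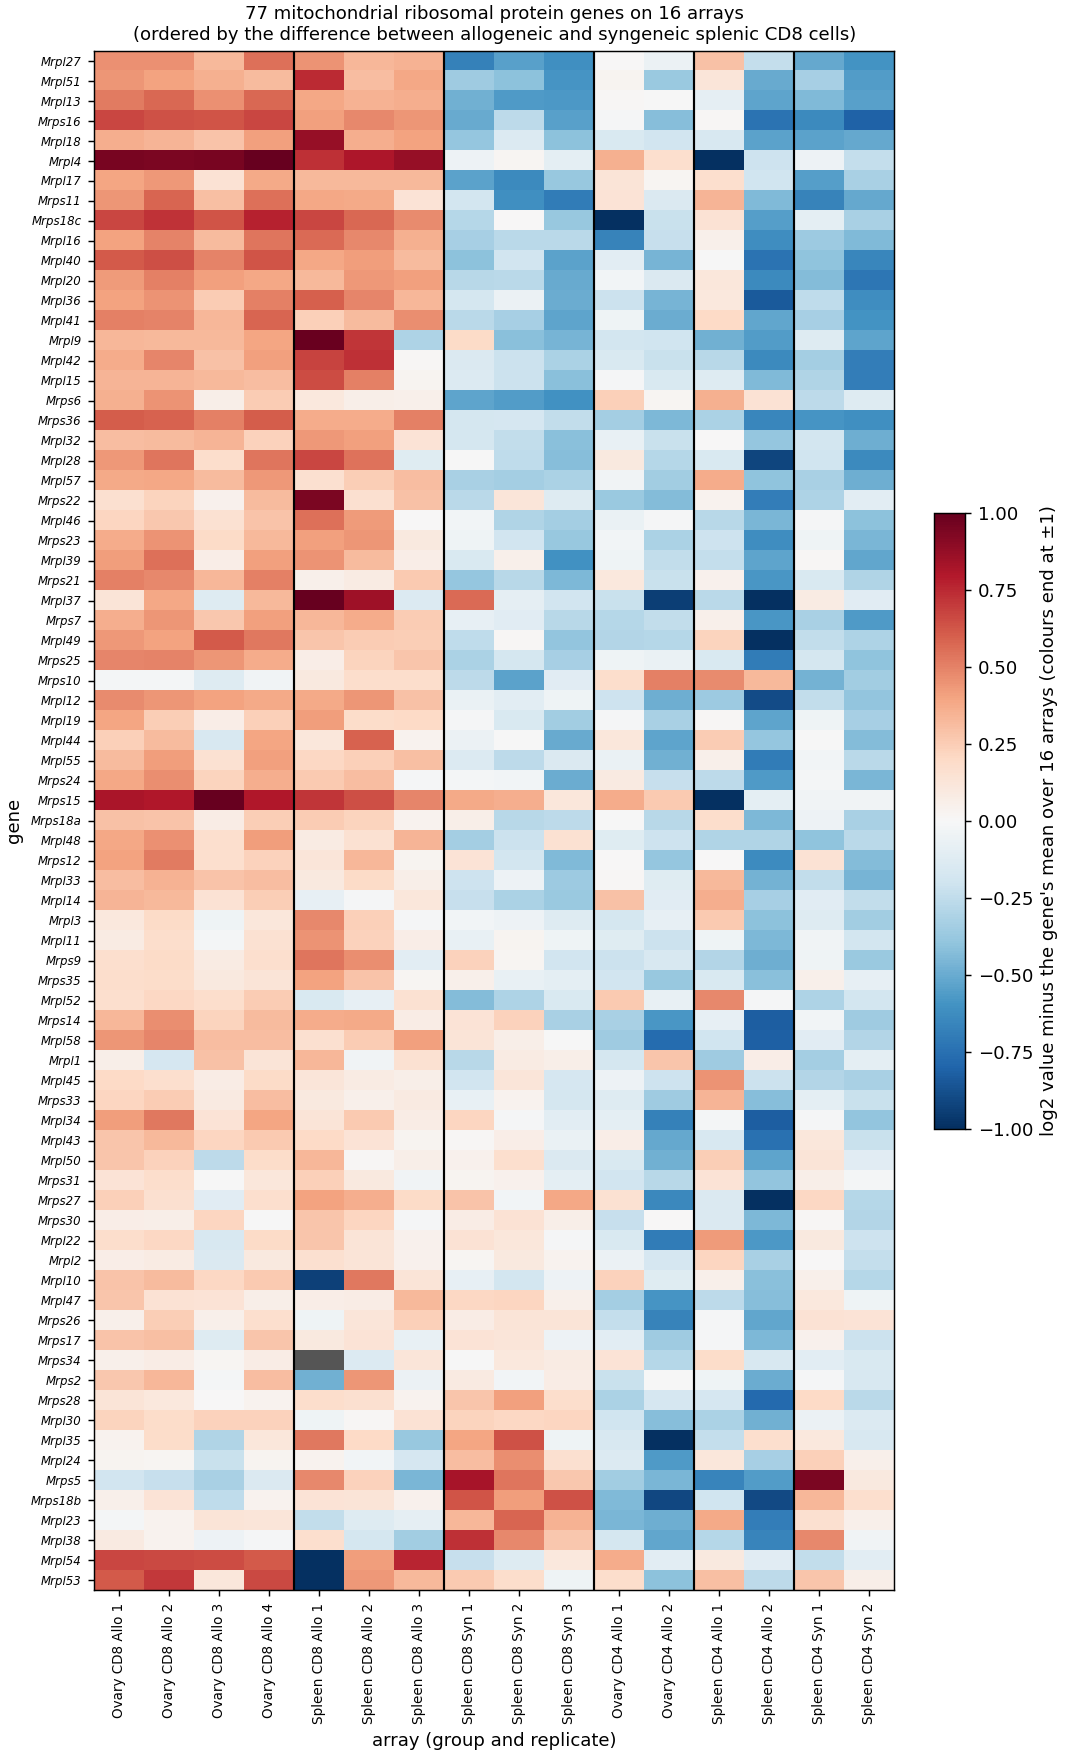
Each row is 1 of the 77 genes and each column 1 of the 16 arrays, coloured by the log2 value minus the gene's mean over the arrays, with colours ending at ±1 and a missing value (Mrps34 on allogeneic splenic CD8 replicate 1, a spot marked as an outlier by the scanner software) in grey. Rows run from the most positive difference between allogeneic and syngeneic splenic CD8 cells (Mrpl27, 0.99) to the most negative (Mrpl53, -1.01, which rests on 1 isolated spot).

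As a summary of each array, the median over the 77 genes was 3.82, 3.92, 3.66 and 3.86 in ovarian CD8 cells, 3.69, 3.75 and 3.69 in allogeneic splenic CD8 cells, and 3.40, 3.45 and 3.37 in syngeneic splenic CD8 cells. In CD4 cells it was 3.46 and 3.36 in ovary, 3.50 and 3.24 in allogeneic spleen, and 3.35 and 3.26 in syngeneic spleen. The 7 CD8 arrays of allogeneic recipients lay above all other arrays, and the 3 groups of CD4 cells overlapped. Brightness moved with the group: the allogeneic CD8 arrays had 75th percentiles of 189 to 450 units, the syngeneic ones of 156 to 245 units, and the 4 allogeneic CD4 arrays of 67.6 to 141 units. The part of brightness in the medians was not tested.

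**Figure D2:**
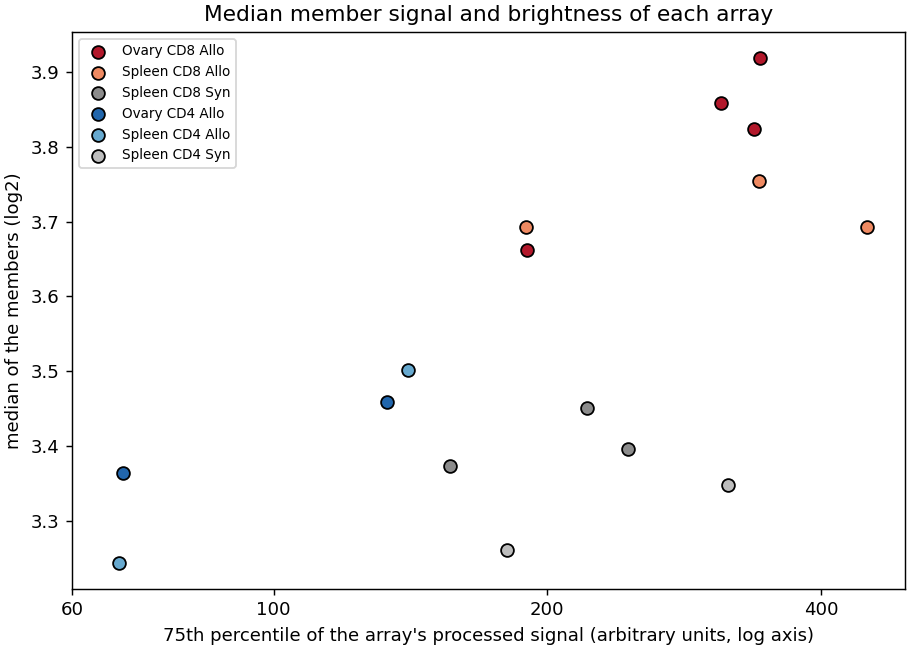
Each point is 1 array, with the 75th percentile of its processed signal in arbitrary units on a log axis and the median log2 value of the 77 genes on the vertical axis. The 7 arrays of allogeneic CD8 cells lie between 3.66 and 3.92 and the other 9 between 3.24 and 3.50.

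Allogeneic and syngeneic splenic CD8 cells were compared to ask what the alloreactive setting changes in donor cells of the same organ. Some genes of both subunits rose after allogeneic transplantation, each by less than a doubling. Of the 77 genes, 25 rose and 2 fell, so that 35.1% were called, a share near that over all features (38.4%). The directions were less even than in the background: 32.5% of the members rose, against 18.8% of all features, and 2 members fell where 19.6% of all features did. The median difference was 0.33 over the members, -0.16 over all features and 0.03 over the 13697 features with a symbol. Of the 77 differences, 62 were above 0. The rises comprised 16 of 48 Mrpl genes and 9 of 29 Mrps genes.

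Mrpl27, a large-subunit protein close to the catalytic centre where peptide bonds form, had log2 values of 4.54, 4.43 and 4.44 in allogeneic CD8 cells, against 3.42, 3.55 and 3.48 in syngeneic CD8 cells. The groups were separated by a wide gap, and the gene rose by 0.99 ± 0.14, or 1.98-fold (limma, adjusted p = 0.00014). Mrpl13, a conserved large-subunit protein, had 4.33, 4.29 and 4.31 in allogeneic cells, against 3.47, 3.38 and 3.37 in syngeneic cells. Its replicates were among the tightest, and it rose by 0.90 ± 0.12 (adjusted p = 0.000114). Mrpl51, a mitochondria-specific large-subunit protein, was at 6.17, 5.74 and 5.82 in allogeneic cells, against 5.07, 5.02 and 4.84 in syngeneic cells, and rose by 0.93 ± 0.18 (adjusted p = 0.00159). Mrpl18, a large-subunit protein of the same family as the bacterial protein that holds the small ribosomal RNA of that subunit, was at 4.81, 4.31 and 4.35 in allogeneic cells, against 3.56, 3.81 and 3.53 in syngeneic cells. Here allogeneic replicate 1 stood above the other replicates. The rise was 0.86 ± 0.16 (adjusted p = 0.000957).

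Among small-subunit genes, Mrps16, which is needed for assembly of that subunit in humans, had 6.24, 6.31 and 6.27 in allogeneic CD8 cells, against 5.32, 5.56 and 5.28 in syngeneic CD8 cells. The arrays did not overlap, and it rose by 0.88 ± 0.18 (adjusted p = 0.00217). Mrps11 rose by 0.80 ± 0.20 and Mrps6 by 0.63 ± 0.13. Mrps36, whose product has since been assigned to the 2-oxoglutarate dehydrogenase complex of the citric acid cycle, had 4.44, 4.44 and 4.57 in allogeneic cells, against 3.89, 3.90 and 3.83 in syngeneic cells. It rose by 0.61 ± 0.12 (adjusted p = 0.00132). The gene stays in all counts of members, which were chosen by name.

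The other members that rose in allogeneic CD8 cells did so by 0.44 (Mrpl12) to 0.84 (Mrpl17). They were Mrpl12, Mrpl15, Mrpl16, Mrpl17, Mrpl20, Mrpl32, Mrpl36, Mrpl40, Mrpl41, Mrpl42, Mrpl46, Mrpl57, Mrps7, Mrps10, Mrps21, Mrps23 and Mrps25. For Mrpl41 and Mrps25 a further probe of the same gene differed in the other direction (-0.12 and -0.66, against 0.72 and 0.47), so their direction is uncertain. The 2 members that fell were Mrpl38, a mitochondria-specific large-subunit protein, and Mrpl23, a conserved protein at the exit of the peptide tunnel. Mrpl38 was at -0.09, -0.44 and -0.61 in allogeneic cells, against 0.47, 0.22 and 0.01 in syngeneic cells (-0.61 ± 0.19, adjusted p = 0.0254). Mrpl23 was at 4.89, 5.0 and 5.04 in allogeneic cells, against 5.46, 5.72 and 5.48 in syngeneic cells (-0.58 ± 0.21, adjusted p = 0.0482). The groups were separated for both genes, and the call of Mrpl23 lay just inside the threshold.

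Of the 27 calls in CD8 cells, 15 were kept whichever 1 of the 16 arrays was left out: those of Mrpl13, Mrpl15, Mrpl16, Mrpl17, Mrpl18, Mrpl20, Mrpl27, Mrpl32, Mrpl40, Mrpl41, Mrpl51, Mrps6, Mrps11, Mrps16 and Mrps36. The other 12 ended without at least 1 array, among them allogeneic replicate 2 for Mrpl12, Mrpl36, Mrpl38, Mrpl42, Mrpl46, Mrpl57, Mrps7, Mrps10, Mrps21, Mrps23 and Mrps25 (adjusted p up to 0.106). Mrpl23 lost its call without any 1 of 14 arrays (up to 0.148). Within slide 1 the median member difference was 0.37 (28 members called) and within slide 2 it was 0.29 (0 called). Slide 1 held 1 syngeneic array and slide 2 held 1 allogeneic array, so these counts are no replicated check. With the slide as a block 27 members rose and 5 fell. With quantile normalization 21 members rose and 5 fell (median 0.23), and with normexp background correction and quantile normalization 18 rose and 4 fell (median 0.19).

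Mrpl53, a neighbour of the ribosomal stalk, and Mrpl54 had the most negative differences (-1.01 ± 0.75 and -0.66 ± 0.78) and were not called. Both rest on allogeneic replicate 1, where Mrpl53 was at -0.19 against 3.63 and 3.52 in the other replicates, and Mrpl54 at 0.19 against 4.03 and 4.37. Without those spots Mrpl53 differed by 0.25 (adjusted p = 0.43) and Mrpl54 rose by 0.67 (adjusted p = 0.0105). Without the isolated CD4 spots, Mrpl4 (0.85, adjusted p = 0.000124) and Mrps18c (0.79, adjusted p = 0.00429) were also called higher in allogeneic CD8 cells, since the fit shares 1 spread over groups. Mrps18b was the lowest of the remaining members that were not called, at -0.46 ± 0.19 (adjusted p = 0.0738), and it was called in 9 of 30 alternative settings. A further probe of Mrps18b differed by only -0.06.

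B-cell transcripts moved with this comparison: 6 of 8 measured B-cell markers fell in allogeneic CD8 cells (median -2.26), and the summed linear level of the 9 markers with a probe was 3.71 to 5.74 in allogeneic and 15.4 to 24.7 in syngeneic CD8 cells, in units of the array's 75th percentile. For comparison, the T-cell markers summed to 1269 to 1344 in allogeneic and 963 to 1130 in syngeneic CD8 cells. Of 9 dendritic cell markers 4 fell, and of 4 measured NK cell markers 2 rose (Nkg7 and Eomes, which activated CD8 T cells also express). The part of these markers in the result was not tested.

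**Figure D3:**
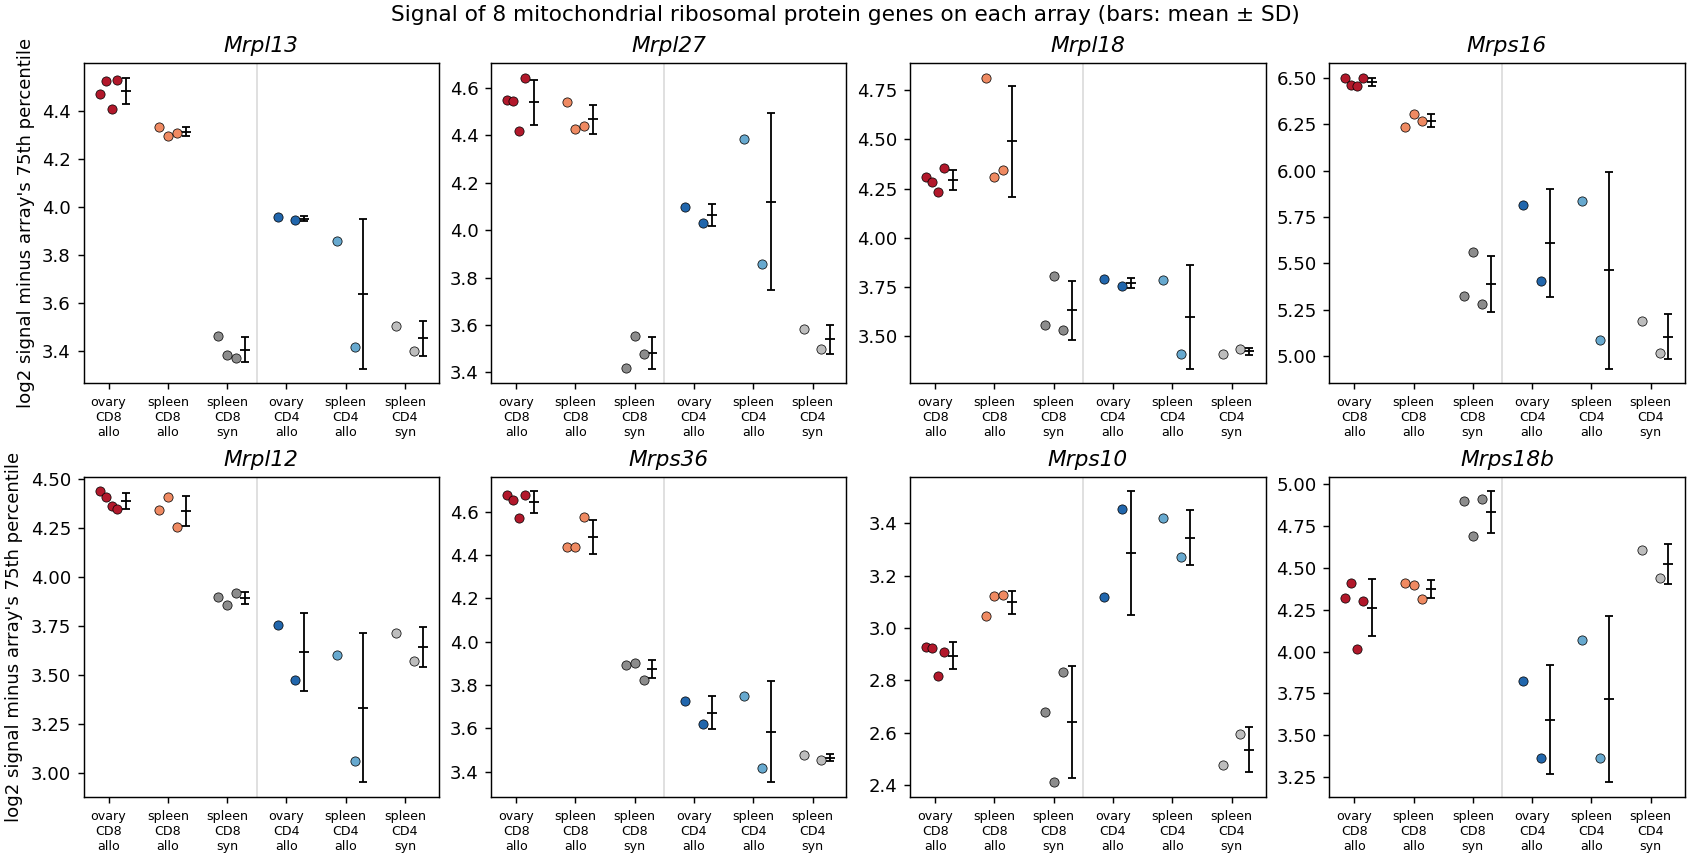
Points are single arrays, on the log2 scale relative to each array's 75th percentile, with the mean ± SD of each group beside them. Mrpl13, Mrpl27, Mrpl18, Mrps16, Mrpl12 and Mrps36 are highest in CD8 cells of allogeneic recipients (at least 4.23 for Mrpl18 and at least 6.24 for Mrps16), Mrps10 is high in allogeneic CD4 cells (3.12 to 3.45), and Mrps18b is highest in syngeneic CD8 cells (4.69 to 4.91).

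The same comparison in CD4 cells rested on 2 arrays a group. Only 4 of 77 members were called, 2 higher and 2 lower, which is 5.19% against 16.1% of all features (10.4% higher, 5.7% lower). The median difference was -0.07 over the members, 0.04 over all features and 0.01 over those with a symbol. Of 77 differences, 34 were above 0. Mrps10, a conserved small-subunit protein, had log2 values of 3.42 and 3.27 in allogeneic CD4 cells, against 2.48 and 2.60 in syngeneic CD4 cells, and rose by 0.81 ± 0.17 (limma, adjusted p = 0.00673). Mrpl27 was at 4.38 and 3.86 in allogeneic cells, against 3.58 and 3.50 in syngeneic cells, and rose by 0.58 ± 0.17 (adjusted p = 0.0367). The arrays were separated for both genes, with a wide spread between the allogeneic replicates of Mrpl27.

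Mrps18b, 1 of 3 mitochondrial relatives of a single bacterial small-subunit protein, fell in allogeneic CD4 cells. It was at 4.07 and 3.37 there, against 4.61 and 4.44 in syngeneic cells (-0.80 ± 0.23, adjusted p = 0.0348). A further probe of the gene differed by only -0.17, and the mean of its probes was not called. Mrps5, a conserved small-subunit protein that bears on decoding accuracy, was at -0.89 and -0.78 in allogeneic cells, against 0.71 and -0.13 in syngeneic cells (-1.13 ± 0.31, adjusted p = 0.0286). Its syngeneic replicates lay further apart than its groups' nearest arrays. Each of the 4 calls ended without at least 1 array: without syngeneic CD4 replicate 1 none was kept (adjusted p up to 0.26 over the arrays left out), and with only these 4 arrays fitted none was called. The sign of the median member difference, -0.07 with all arrays, depended on single arrays. It was 0.24 without allogeneic CD4 replicate 2, the dimmest array, and -0.28 without replicate 1. Among members that were not called, Mrps15 and Mrpl4 had the most negative differences (-3.32 ± 1.33 and -3.03 ± 1.21), each of which became -0.06 without the isolated spot on allogeneic CD4 replicate 1. Mrps11, Mrpl52 and Mrps6 differed by 0.54, 0.48 and 0.44, Mrpl37 by -0.76. In these cells 4 of 8 B-cell markers fell, with a summed level of 10.3 on both allogeneic CD4 arrays and of 34.4 to 71.8 on the syngeneic ones, while 3 of 10 macrophage markers rose. Of 4 NK cell markers 2 rose and 2 fell, and 2 of 9 dendritic cell markers fell. The part of these markers was not tested.

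The effects of allogeneic transplantation in the 2 subsets compare separate arrays within the same fit, which shares the spread over all groups. Mrpl27 and Mrps10 rose in both, which is 8% of the 25 members that rose in CD8 cells and 100% of the 2 that rose in CD4 cells. The overlap over all features was not counted. The difference between the effects was tested as an interaction. For Mrpl13 the effect was 0.90 in CD8 cells and 0.19 in CD4 cells, where it was not called, and the effects differed by 0.72 ± 0.20 (limma, adjusted p = 0.0346). Mrpl12 encodes the stalk protein that recruits translation factors. Its effect was 0.44 in CD8 cells and -0.31 in CD4 cells, where it was not called, and the effects differed by 0.75 ± 0.23 (adjusted p = 0.0495). Without the isolated spots Mrpl4 was called too (0.91, adjusted p = 0.0164). These 2 of 77 members (2.6%) compare with 11.9% of all features called for the interaction, 5.27% with a positive and 6.67% with a negative one, and 12 members had an unadjusted p under 0.05. The median of the members' interaction was 0.42, against -0.10 over all features and 0.10 over those with a symbol, and 67 of 77 were above 0. Without allogeneic splenic CD4 replicate 2, the dimmest array, that median was 0.16, with 47 of 77 above 0. Without replicate 1 of that group it was 0.65, with 71 above 0. Mrpl13 lost its call without any 1 of 11 arrays and Mrpl12 without any 1 of 12 (adjusted p up to 0.121 and 0.162). Without allogeneic CD4 replicate 1 there were 18 members called, without allogeneic CD8 replicate 3 there were 7, and without allogeneic CD8 replicate 1 or 2 there were 0.

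**Figure D4:**
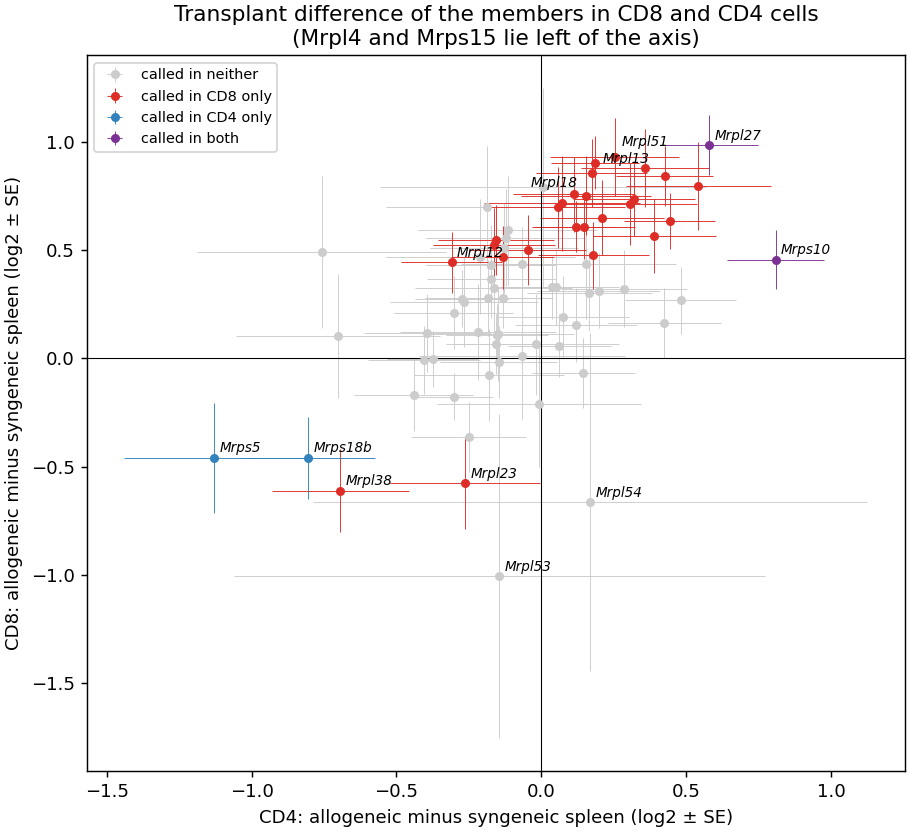
Each point is 1 gene, with the difference between allogeneic and syngeneic spleen in CD4 cells on the horizontal axis and in CD8 cells on the vertical axis (log2 ± SE), coloured by where it was called. Most called genes lie high on the vertical axis with CD4 differences on either side of 0, Mrpl27 and Mrps10 lie to the upper right, and Mrpl4 and Mrps15 (CD4 differences of -3.03 and -3.32 that rest on 1 array) lie beyond the left edge.

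CD8 and CD4 cells of the same organ were compared next. In the ovary, 21 of 77 members were higher in CD8 cells and 0 lower (27.3%, against 17.5% of all features, 8.47% higher and 9.03% lower). The median difference was 0.51 over the members, 0.07 over all features and 0.15 over those with a symbol. Of 77 differences, 76 were above 0. In the allogeneic spleen, 37 members were higher in CD8 cells and 0 lower (48.1%, against 29.4% of all features, 15.2% higher and 14.3% lower). The median there was 0.52 over the members, -0.06 over all features and 0.10 over those with a symbol. In the syngeneic spleen 0 members were called by limma, with 3 at an unadjusted p under 0.05, where 4.14% of all features were called (1.27% higher, 2.88% lower). Its median was 0.11 over the members, 0.10 over all features and 0.07 over those with a symbol. Whether the subset difference itself differs between allogeneic and syngeneic spleen is the interaction given above, in which 2 members were called.

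Mrps36 had 4.68, 4.65, 4.57 and 4.68 in ovarian CD8 cells, against 3.73 and 3.62 in ovarian CD4 cells, and rose by 0.97 ± 0.12 (limma, adjusted p = 0.000353). In the allogeneic spleen it was at 4.44, 4.44 and 4.57 in CD8 cells, against 3.75 and 3.42 in CD4 cells (0.90 ± 0.13, adjusted p = 0.000575). The subsets did not overlap in either organ, and both calls were kept whichever array was left out. In the syngeneic spleen Mrps36 was also the most different member, at 3.89, 3.90 and 3.83 in CD8 cells, against 3.48 and 3.45 in CD4 cells, but was not called (0.41 ± 0.13, adjusted p = 0.121).

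Mrpl12 was at 4.44, 4.41, 4.36 and 4.34 in ovarian CD8 cells, against 3.76 and 3.48 in ovarian CD4 cells (0.77 ± 0.15, adjusted p = 0.00556). In the allogeneic spleen it was at 4.34, 4.41 and 4.26 in CD8 cells, against 3.60 and 3.07 in CD4 cells (2.00-fold, SE 0.16 on the log2 scale, adjusted p = 0.00105). Again the CD8 arrays lay above every CD4 array. The ovarian call ended without ovarian CD4 replicate 2 (adjusted p up to 0.0768), while the splenic one was kept without each array. Mrpl58, a peptidyl-tRNA hydrolase of the large subunit that frees stalled ribosomes, was at 5.42, 5.47, 5.29 and 5.29 in ovarian CD8 cells, against 4.62 and 4.22 in ovarian CD4 cells. The groups did not overlap, and it rose by 0.95 ± 0.18 in the ovary (adjusted p = 0.00441) and by 0.78 ± 0.19 in the allogeneic spleen (adjusted p = 0.00968).

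The differences of 3 genes owe their size to 1 spot each. Mrps18c was at 4.83, 4.88, 4.79 and 4.93 in ovarian CD8 cells, against 1.37 and 3.94 in ovarian CD4 cells, and its difference of 2.20 ± 0.49 became 0.91 (adjusted p = 0.0248) without the isolated spot. In the allogeneic spleen Mrpl4 was at 5.93, 6.02 and 6.08 in CD8 cells, against -0.95 and 5.0 in CD4 cells, and its difference of 3.98 ± 1.11 became 1.01 (adjusted p = 0.00114). Mrps15 was at 2.93, 2.85 and 2.70 in CD8 cells, against -4.41 and 2.11 in CD4 cells, and its difference of 3.97 ± 1.21 became 0.71 (adjusted p = 0.0129). The spot of Mrps15 was not well above background. All 3 were called with and without the spots. Without the spots Mrpl4 (0.70, adjusted p = 0.00308) and Mrps15 (0.54, adjusted p = 0.018) were also called in the ovary, and Mrps18c (0.77, adjusted p = 0.0137) in the allogeneic spleen.

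The calls in ovary and allogeneic spleen compare separate arrays but come from the same fit, which shares the spread over all groups. They shared 16 members, which is 76.2% of the 21 in the ovary and 43.2% of the 37 in the spleen: Mrpl12, Mrpl13, Mrpl16, Mrpl18, Mrpl30, Mrpl36, Mrpl40, Mrpl47, Mrpl48, Mrpl58, Mrps7, Mrps14, Mrps16, Mrps18b, Mrps25 and Mrps36. The overlap over all features was not counted. In the ovary Mrpl40 and Mrpl16 rose by 0.88 each, Mrps16 by 0.87 and Mrps14 by 0.79. Mrpl27 had the lowest called difference there (0.48). Mrpl34, Mrpl41 and Mrps26 were also called in the ovary. In the spleen the further calls were Mrpl9, Mrpl11, Mrpl15, Mrpl20, Mrpl28, Mrpl32, Mrpl37, Mrpl42, Mrpl43, Mrpl46, Mrpl51, Mrps9, Mrps22, Mrps23, Mrps24, Mrps27, Mrps28, Mrps30 and Mrps35, from 0.46 (Mrps30, a large-subunit protein in spite of its name) to 1.36 (Mrpl37). A further probe of Mrps25 went the other way in the spleen (-0.37, against 0.61). Mrps10 had the only negative difference in the ovary (-0.39 ± 0.14, adjusted p = 0.0817), and the next lowest were those of Mrpl1 (0.03), Mrpl52 (0.11), Mrps34 (0.13) and Mrpl2 (0.13). In the spleen the lowest differences were those of Mrpl53 (-0.90 ± 0.84) and Mrpl54 (-0.74 ± 0.87), which became 0.36 and 0.60 without their isolated spots, the second then called (adjusted p = 0.039). Mrpl52 (-0.26), Mrps10 (-0.25) and Mrps6 (-0.18) followed and were not called.

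Most of these calls depended on single arrays. In the ovary 2 of 21 calls were kept whichever array was left out, those of Mrps18c and Mrps36, and the number of members called ranged from 3 without ovarian CD4 replicate 2 to 39 without allogeneic splenic CD4 replicate 1. Mrpl40, Mrpl58 and Mrps16 lost their ovarian call only without ovarian CD4 replicate 2, and Mrpl16 only without replicate 1. In the spleen 5 of 37 were kept (Mrpl4, Mrpl12, Mrpl13, Mrpl18 and Mrps36). The splenic median difference, 0.52 with all arrays, was 0.29 without allogeneic splenic CD4 replicate 2 and 0.72 without replicate 1. The ovarian median, 0.51 with all arrays, was 0.35 without ovarian CD4 replicate 2 and 0.59 without replicate 1. Within slide 1 the median differences were 0.40 in the ovary and 0.31 in the spleen, and within slide 2, which holds the 2 dimmest arrays, 0.56 and 0.61. With quantile normalization 8 members were higher and 1 lower in the ovary (median 0.29), and 16 were higher and 3 lower in the spleen (median 0.31). With normexp and quantile normalization these numbers were 15 and 0 in the ovary and 17 and 2 in the spleen. The slides held 1 CD4 array of each group, so within-slide values lack a replicated CD4 arm. With the slide as a block 38 members were higher in the ovary and 43 in the spleen, with 0 lower in both. With only the groups compared fitted, 37 members were called in the ovary and 0 in the spleen.

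Markers of other cell types moved with the same comparisons. Of 10 measured macrophage and monocyte markers, 9 were lower in CD8 than in CD4 cells of the ovary (median -3.63), 10 in the allogeneic spleen (median -4.03) and 6 in the syngeneic spleen (median -2.91). Their summed level was 45.9 to 71.9 in ovarian CD8 cells and 105 to 169 in ovarian CD4 cells. In the allogeneic spleen it was 38.8 to 58.0 in CD8 cells and 141 to 200 in CD4 cells, and in the syngeneic spleen 67.1 to 82.3 in CD8 cells and 72.1 to 99.7 in CD4 cells. All 10 markers were well above background on every CD4 array. Of 4 NK cell markers, 3 were higher in CD8 cells in all 3 comparisons, and 1 was lower in the syngeneic spleen. Of 9 dendritic cell markers, 1 was higher and 3 were lower in the ovary, 4 were higher in the allogeneic spleen and 2 in the syngeneic spleen. Of 8 B-cell markers, 1 was lower in the ovary and 4 in the allogeneic spleen (median -1.61), where they summed to 3.71 to 5.74 in CD8 cells and 10.3 in CD4 cells. The part of these markers in the result was not tested.

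**Figure D5:**
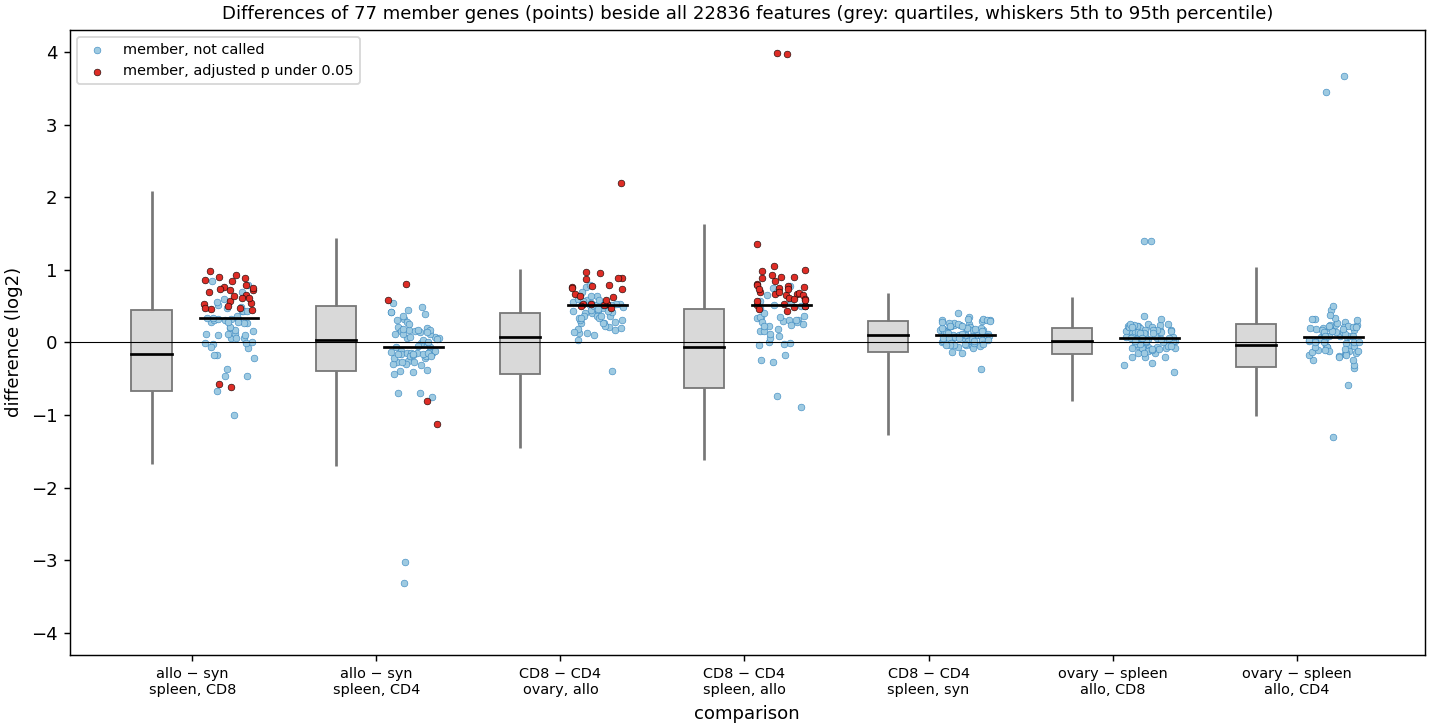
For each comparison, points are the log2 differences of the 77 genes (red where the adjusted p was under 0.05) with their median as a line, beside the quartiles, median and outer percentiles of all 22836 features in grey. Member medians lie above those of all features for allogeneic against syngeneic CD8 cells (0.33 and -0.16) and for CD8 against CD4 cells of the ovary (0.51 and 0.07) and the allogeneic spleen (0.52 and -0.06). Over features with a symbol, which are not drawn apart, these medians were 0.03, 0.15 and 0.10. The points beyond 2 in size rest on single spots.

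Ovarian and splenic T cells of allogeneic recipients were compared to set T cells of the attacked organ against those of a lymphoid organ. In CD8 cells limma called 0 of 77 members, with 0 at an unadjusted p under 0.05, where 0.53% of all features were called (0.263% higher, 0.267% lower). The median difference was 0.06 over the members, 0.03 over all features and -0.0036 over those with a symbol, and 49 of 77 were above 0. Mrpl53 and Mrpl54 had the most positive differences (1.40 ± 0.70 and 1.40 ± 0.73), which became 0.15 and 0.06 without the isolated splenic spots. The next were Mrpl10 (0.36), Mrps21 (0.32) and Mrps25 (0.26), and the most negative were Mrpl37 (-0.41), Mrps5 (-0.31), Mrps22 (-0.28), Mrps10 (-0.20) and Mrps27 (-0.20). With estimated array weights, which gave allogeneic splenic CD8 replicate 2 a weight of 41.8, 26 members were called higher and 12 lower. With these weights 10642 of all 22836 features were called too, 5809 higher and 4833 lower.

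In CD4 cells 0 of 77 members were called by limma, with 3 (Mrps18c, Mrpl4 and Mrps15) at an unadjusted p under 0.05, where 0.906% of all features were called (0.394% higher, 0.512% lower). These 3 were at -1.30, 3.44 and 3.67, and at -0.01, 0.47 and 0.41 without their isolated spots. The median was 0.07 over the members, -0.04 over all features and 0.0039 over those with a symbol. Other extremes were Mrpl35 (-0.59), Mrpl22 (-0.36), Mrpl23 (-0.32) and Mrpl45 (-0.24) at the lower end, and Mrps27 (0.50), Mrpl28 (0.44) and Mrps25 (0.37) at the upper end. For the difference of the tissue effect between subsets, limma's interaction gave 0 calls among members (0 at an unadjusted p under 0.05) and 0% among all features, of which 2539 had an unadjusted p under 0.05. With 2 CD4 arrays a group, the standard error of Mrps18a, for example, was 0.21, so small differences were not detectable.

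In the syngeneic spleen, where no member was called between subsets, the extremes besides Mrps36 were Mrpl35 (0.36), Mrps28 (0.32), Mrps15 (0.32) and Mrpl23 (0.31) at the upper end. At the lower end were Mrps6 (-0.37, adjusted p = 0.238), Mrps21 (-0.15), Mrpl14 (-0.13), Mrpl17 (-0.08) and Mrpl27 (-0.06).

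The 3 relatives of the same bacterial protein are given side by side. Mrps18b was at 4.41, 4.40 and 4.31 in allogeneic splenic CD8 cells, against 4.90, 4.69 and 4.91 in syngeneic ones, and had negative transplant differences in CD8 (not called) and CD4 cells (called). Its further probe differed by -0.06 in CD8 and -0.17 in CD4 cells. Mrps18a, whose product sits in the large subunit, was at 2.81, 2.78 and 2.60 in allogeneic CD8 cells, against 2.62, 2.28 and 2.30 in syngeneic CD8 cells (0.33 ± 0.18, adjusted p = 0.154). Mrps18c was at 4.83, 4.74 and 4.64 in allogeneic CD8 cells, against 3.87, 4.17 and 3.78 in syngeneic CD8 cells (0.79 ± 0.46, adjusted p = 0.191). The arrays of Mrps18c were separated, and without the isolated ovarian spot the same difference had a standard error of 0.18 and was called (adjusted p = 0.00429). Differences between the 3 genes were not tested.

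Other genes of mitochondrial translation and its neighbours were described from lists. Between allogeneic and syngeneic splenic CD8 cells, 36 of 79 nuclear-encoded respiratory chain subunits rose and 0 fell (median 0.47), whereas 1 of 83 cytosolic ribosomal protein genes rose and 60 fell (median -0.65), set against 18.8% and 19.6% of all features. The cytosolic count depended on scaling, with 3 higher and 13 lower after quantile normalization (median -0.14), while 39 respiratory chain subunits rose and 1 fell (median 0.48). Of 27 genes of mitochondrial ribosome assembly and rRNA modification, 5 rose and 3 fell. Ddx28, an RNA helicase of large-subunit assembly, rose by 2.60 ± 0.33, Trub2, a pseudouridine synthase, by 1.02 ± 0.20, Tfb1m, which methylates the small-subunit rRNA, by 0.64 ± 0.15, and Malsu1, an assembly factor, by 0.53 ± 0.13. The rRNA methyltransferase Mettl15 rose by 0.63 ± 0.19, whereas Mterf3, Nsun4 and Eral1 differed by -0.88, -0.70 and -0.60 and were called lower. Of 15 translation factors 4 rose and 1 fell: the release factor Mtrf1 rose by 1.02 ± 0.20 and the initiation factor Mtif2 fell by 0.62 ± 0.20. Tsfm, an elongation factor, Oxa1l, which inserts new proteins into the inner membrane, and Slirp, which stabilises mitochondrial mRNA, rose by 0.71, 0.65 and 0.59. Of 19 mitochondrial aminoacyl-tRNA synthetases 2 rose and 3 fell, among them Fars2 (1.01 ± 0.29), Ears2 (-1.15 ± 0.20), Vars2 (-1.12 ± 0.17) and Aars2 (-0.81 ± 0.17). Of 11 genes of mitochondrial DNA maintenance and transcription 0 rose and 2 fell (Twnk, the helicase, at -0.79 ± 0.21, and Polg2 at -0.49 ± 0.15).

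Of 9 transcriptional regulators known to act on nuclear genes of mitochondrial proteins, 3 fell in allogeneic CD8 cells and 0 rose. The share called was 33.3%, against 38.4% of all features, of which 19.6% of all features were lower. The coactivator Ppargc1b fell by 1.76 ± 0.15 (adjusted p = 2.71e-06), its relative Pprc1 fell by 1.38 ± 0.19 and Myc fell by 0.63 ± 0.21. In allogeneic CD4 cells 2 of the 9 fell and 0 rose (22.2%, against 16.1% of all features called and 5.7% lower). Myc fell there by 1.03 ± 0.25 and Pprc1 by 0.94 ± 0.23. Yy1 and Gabpa, whose motifs were searched in the promoters, differed by -0.06 ± 0.12 and 0.31 ± 0.15 in CD8 cells and were not called. Among the 23 members that rose there and have a promoter sequence, 5 held the NRF1, 8 the ETS and 5 the YY1 motif, against 8, 18 and 7 of the other 46, which include the untested Mrpl21.

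Of the 5 mitochondrial ribosomal proteins with other kinds of symbol, 0 were called between allogeneic and syngeneic CD8 cells. In CD4 cells 2 fell, Chchd1 (-1.07 ± 0.25) and Ptcd3 (-0.50 ± 0.15), both of the small subunit. In the other lists in CD4 cells, set against 16.1% of all features called, 1 of 79 respiratory chain subunits rose and 1 fell, and 2 of 83 cytosolic ribosomal proteins rose and 5 fell (1 and 17 with normexp). Of 27 assembly genes 1 rose and 3 fell, of 15 translation factors 1 rose (the release factor Mtrf1, adjusted p = 0.00935), and of 19 synthetases 2 fell. Between CD8 and CD4 cells, respiratory chain subunits were higher in CD8 cells in the ovary (20 of 79, 0 lower, median 0.46) and the allogeneic spleen (32 of 79, 0 lower, median 0.45). These counts were 7 (median 0.27) and 19 (median 0.33) with quantile normalization, and 10 (median 0.27) and 24 (median 0.17) with normexp, each with 0 lower. Cytosolic ribosomal proteins showed 1 higher and 2 lower in the ovary, and 4 higher and 9 lower in the spleen, where the direction turned with quantile normalization (12 higher, 3 lower). In the syngeneic spleen 0 respiratory chain subunits were higher in CD8 cells and 1 was lower. Between ovary and spleen, 0 genes of any of these lists were called in either subset.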

How the data were processed

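The deposited scanner tables hold spot intensities with background already subtracted. Per the file headers, the scanner software was Feature Extraction (version 11.5.1.1) of Agilent. A deposited series matrix holds log2 values. Set against the scanner values, these followed the log2 signal after 75th percentile scaling and centring of each probe on its median (lowest Pearson r 0.999821, array medians -0.341 to 0.491). The software behind it: not given in the sources used here.

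Here log2 processed signals were shifted by each array's 75th percentile, and spots marked as non-uniform or population outliers were set missing. Of 55681 probes, 27656 were named by accession through a RefSeq gene table (GRCm38.p6). Kept were 31122 probes that the scanner software called well above background on all arrays of any 1 of the 6 groups, and the probe with the highest mean stood for its gene, leaving 22836 features, 13697 with a symbol. limma 3.58.1 in R 4.3.3 fitted 1 mean per group to 16 arrays, with 10 residual and 2.16 prior degrees of freedom. It was tested on simulated data with independent noise of equal spread on all arrays for a gene. Those data held no slide effects, uneven arrays or isolated spots, so the test does not bear on these. Contrasts were 7 comparisons of 2 groups and 2 interactions. Saturated spots numbered 0.

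Members, lists and tests were chosen with earlier results of these data known. Members named are those called in any comparison, the 5 highest and 5 lowest differences of each comparison of 2 groups, the ends of the range of mean level, the Mrps18 relatives and any that failed the filter. Of other pathway genes, most called ones of the small lists are named for the splenic CD8 transplant comparison (1 is not reported here) and elsewhere mostly counts are given. Yy1 and Gabpa were named for their motifs, after their values were seen. Where isolated spots were masked, the alternative was chosen after seeing the data. Alternatives were the normalization, background correction, filter, probe rule, slide, replicate number, array weights, the groups fitted and each array left out.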

Additional observations from a re-analysis of the deposited data

Results flagged for a closer look

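In ovarian CD8 cells, the only group of 4 arrays, 1 array stood apart from the other 3 in 9 of 77 genes by Dixon's gap-over-range criterion, which chance alone meets in about 1 in 20 groups. Replicate 3 was the array in 8 of them. It was low for Mrpl2 (3.95, others 4.16 to 4.19), Mrpl22 (3.74, others 4.07 to 4.10), Mrpl24 (5.08, others 5.32 to 5.33), Mrpl53 (3.31, others 3.82 to 3.91), Mrps10 (2.82, others 2.91 to 2.93), Mrps17 (2.73, others 3.14 to 3.16) and Mrps21 (5.82, others 5.97 to 5.99), and high for Mrps15 (3.23, others 3.01 to 3.02). Replicate 4 was high for Mrpl9 (2.16, others all at 2.09). Replicate 3 was also the dimmest of the 4 arrays, with a 75th percentile of 190 units, against 311 to 343 units in the others. The part of brightness was not tested.

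The effect of allogeneic transplantation differed between CD8 and CD4 cells, by the interaction test, for Mrpl12 (0.75, adjusted p = 0.0495) and Mrpl13 (0.72, adjusted p = 0.0346). These 2 of 77 members (2.6%) compare with 11.9% of all features called. Mrpl12 lost its call without any 1 of 12 of the 16 arrays, and Mrpl13 without any 1 of 11.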

How the results depend on the processing

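Each result was recomputed under 30 alternatives, or 29 where a gene failed the filter on all 16 arrays or, for Mrps34, lacked a value on slide 1. Reported counts stand in brackets. All 91 calls of a member in a comparison were kept with the slide as a block and with isolated spots masked, 86 in the series matrix, 51 with quantile normalization, 45 with normexp and 0 on slide 2 alone, where 1 or 2 arrays a group remain. With only the groups compared fitted 40 were kept, and 44 without the 2 dimmest arrays.

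With array weights, 10642 of 22836 features were called between ovarian and splenic CD8 cells. Between allogeneic and syngeneic CD8 cells 15569 were called. Between ovary and spleen, CD8 members called numbered 38 with array weights (0). In CD4 cells (0) there was 1 with normexp, 3 on slide 1 alone and 5 without the 2 dimmest arrays. For allogeneic against syngeneic CD8 cells (27) there were 16 with no filter, 0 on slide 2 alone and 56 with array weights. For CD4 cells (4) there were 7 with normexp, 1 with no filter, 12 on slide 1, 0 on slide 2, 0 with only the groups compared, 0 with array weights and 16 without the dimmest arrays. For ovarian CD8 against CD4 cells (21) there were 9 with quantile normalization, 9 with no filter, 38 with the slide block, 10 on slide 1, 0 on slide 2, 37 with only the groups compared, 36 with array weights and 12 without the dimmest arrays. In the allogeneic spleen (37) there were 19 with quantile normalization, 19 with normexp, 24 with no filter, 21 on slide 1, 0 on slide 2, 0 with only the groups compared, 17 with array weights and 8 without the dimmest arrays. In the syngeneic spleen (0) there was 1 with array weights and 1 without the dimmest arrays. For the tissue interaction (0) there were 3 on slide 1 and 4 without the dimmest arrays. For the transplant interaction (2) there was 1 with quantile normalization, 7 with normexp, 1 in the series matrix, 0 with no filter, 1 with the mean of probes, 0 on slide 2, 1 with the replicate block, 0 with only the groups compared, 3 with the slide block, 3 with array weights, 3 without the dimmest arrays and 3 with isolated spots masked.

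Leaving out 1 array at a time, with a lone array assumed to vary like the other groups, gave 0 for CD8 ovary against spleen and 0 to 3 for CD4. The transplant counts were 16 to 35 in CD8 cells and 0 to 12 in CD4 cells. CD8 against CD4 gave 3 to 39 in the ovary, 7 to 53 in the allogeneic and 0 to 1 in the syngeneic spleen, and the interactions 0 to 3 (tissue) and 0 to 18 (transplant). The cause of these shifts was not tested.

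Whether replicate numbers pair the samples could not be settled. Deviations of 33 same-numbered pairs correlated from -0.439 to 0.454, 20 of them over 0.1. Deviations within groups of 2 arrays mirror each other, so some of these correlations repeat, and many same-numbered pairs share a slide. With the number as a replicate block the members called were 0, 0, 30, 5, 23, 41, 0, 0 and 1 in the order above.

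Directions of called members reversed for Mrps25 in the CD8 transplant comparison with the mean of probes (-0.097), and for Mrpl30 (-0.116) and Mrpl48 (-0.0088) between subsets of the allogeneic spleen with normexp. Mrpl54, not called as reported, turned to 0.67 (CD8 transplant, also without allogeneic CD8 replicate 1) and 0.60 (CD8 against CD4, allogeneic spleen) with isolated spots masked, and its CD8 transplant difference ran from -1.42 to 0.67 over the arrays left out. Of 1462 recomputed values of the 49 named differences that were not called, 53 became called with the same sign and 46 changed sign by more than 1 standard error. Of 270 recomputed medians, 227 moved by less than 0.0916, the SD of array medians within groups. The number of arrays, 2 in each CD4 group, limits the precision.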
